A study of Homo sapiens with 32 samples.

Results

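The genes described here carry new proteins into the endoplasmic reticulum (ER) and move them between the ER and the Golgi. A list of names chose them, and the list was made with earlier results of these data known. It holds 52 of the 29744 genes in the deposited table, and all 52 had 1 row each and passed the filter on low counts in every fit. By role they are 7 genes of the signal recognition particle (SRP) and its receptor, 6 of the Sec61 channel with SEC62 and SEC63, 4 of the translocon-associated protein (TRAP) complex, 5 of the signal peptidase, 12 of the COPII coat, 8 cargo receptors and p24 proteins, 3 KDEL receptors and 7 subunits of the COPI coat. Polyadenylated RNA was sequenced from 2 human prostate cancer lines, LNCaP, which is androgen-sensitive, and C4-2B, which descends from LNCaP and is castration-resistant. In each line 4 libraries came from cells with siRNA against MOCOS and thapsigargin (siMOCOS TG), 4 from cells with control siRNA and thapsigargin (siCTRL TG), 4 from siMOCOS cells without it and 4 from siCTRL cells without it, 32 libraries in all. Thapsigargin (TG) blocks the calcium pump of the ER and so causes ER stress, and the design text describes the controls as given vehicle and the replicates as biological. MOCOS encodes the molybdenum cofactor sulfurase, and the labels list 2 siRNAs against it, which the columns of the table do not name. Each line is a single established culture model, without the other cells of a tumour.

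Most secreted and membrane proteins enter the ER through the Sec61 channel, to which SRP and its receptor bring the ribosome while the protein is still being made. TRAP sits beside the channel, and the signal peptidase cuts off the signal sequence on the inner side. COPII coats form vesicles that leave the ER, COPI coats return membrane and escaped residents from the Golgi, and KDEL receptors bind the escaped residents by their C-terminal signal. Many of these genes are known targets of the unfolded protein response, above all of its transcription factor XBP1s, and secretory cells such as those of the prostate epithelium depend on them.

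Libraries held 7.51 to 27.1 M counts, and levels are in CPM, counts set relative to library size, which was scaled by TMM factors. The factors were taken within each line, so CPM of LNCaP and of C4-2B are not on exactly the same scale. MOCOS checked the labels, since each knockdown library was below every control library of its line and drug. In LNCaP it had 9.45, 11.9, 15.5 and 18.5 CPM in siMOCOS TG against 87.1, 88.7, 95.6 and 94.4 CPM in siCTRL TG, and 3.79, 3.32, 3.26 and 3.67 CPM in siMOCOS against 24.1, 22.9, 22.8 and 22.6 CPM in siCTRL. In C4-2B MOCOS had 12.3, 11.3, 19.5 and 19.8 CPM in siMOCOS TG against 94, 96.4, 89.5 and 94.4 CPM in siCTRL TG, and 2.37, 2.97, 4.12 and 4.84 CPM in siMOCOS against 34.1, 35.8, 31.1 and 31.1 CPM in siCTRL. All 8 luminal epithelial markers reached a mean of 1 CPM in all 8 groups, but their summed level was lower with TG, at 2270 to 2490 CPM in LNCaP siCTRL TG against 4630 to 5040 CPM in siCTRL and 1590 to 1740 CPM in C4-2B siCTRL TG against 2440 to 2560 CPM in siCTRL. After knockdown this sum was above that of siCTRL cells in C4-2B, at 2900 to 3780 CPM in siMOCOS and 1770 to 2090 CPM in siMOCOS TG. In LNCaP it overlapped that of siCTRL cells with and without TG. For the other marker lists, shifts with knockdown are not given here. The 4 immune markers summed to at most 0.177 CPM in any library. Of the 3 endothelial markers VWF reached 1 CPM, and their sum was 5.23 to 8.15 CPM in LNCaP siCTRL TG against 2.04 to 2.76 CPM in siCTRL, and 4.81 to 6.49 CPM in C4-2B siCTRL TG against 0.975 to 1.37 CPM in siCTRL. The 4 fibroblast markers, of which COL1A1 reached 1 CPM in these groups, summed to 6.98 to 9.56 CPM in LNCaP siCTRL TG against 3.79 to 5.11 CPM in siCTRL. In C4-2B their sums overlapped, at 6.7 to 16.3 CPM against 3.55 to 7.78 CPM. The 4 neuroendocrine markers, of which SYP reached 1 CPM, summed to 5.87 to 9.87 CPM in C4-2B siCTRL TG against 2.62 to 4.61 CPM in siCTRL. In LNCaP their sums overlapped, at 1.53 to 4.19 CPM against 1.06 to 2.36 CPM. Of the 3 basal markers TP63 reached 1 CPM, only in C4-2B with TG. Their sum was 1.09 to 1.33 CPM in C4-2B siCTRL TG against 0 to 0.0582 CPM in siCTRL. In LNCaP it was 0.771 to 0.923 CPM against 0.107 to 0.617 CPM. The part of these shifts in the results was not tested, and erythroid markers were not analysed here. The control libraries that deviated most from their group were siCTRL replicate 4 and siCTRL TG replicate 4 in LNCaP, and siCTRL replicate 2 and siCTRL TG replicate 3 in C4-2B. In bulk RNA, fewer cells of a kind and less RNA per cell cannot be told apart. Fold changes are log2 values from edgeR's quasi-likelihood test, which called a gene at a Benjamini-Hochberg adjusted p under 0.05.

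The promoters of 48 members were in a RefSeq table (build GRCh38.p14, 250 bases before to 50 after each start), and 14 of the 48, or 29.2%, held TGACGTG on either strand, the core of the unfolded protein response element bound by ATF6 and XBP1s. Of 9614 genes tested in both lines and present in the table, 3.44% held it. The 14 were SEC61A1, SEC62, SSR3, SSR4, SRP19, SEC23A, SEC24A, SEC13, SEC16A, KDELR3, COPA, COPB1, COPB2 and COPE. The longer TGACGTGG, which contains the first and was added after the matches were seen, was in 11 of 48 members, 22.9%, against 1.22% of the genes tested. The stress elements ERSE and ERSE-II and the CHOP-ATF4 composite element TGATGCAA were in none of these windows, and in 0.177%, 0.146% and 0.749% of the genes tested. Of the 26 members in the table that were called higher with TG in both lines, with either siRNA, 10 held TGACGTG, and of the 12 called higher in none of these comparisons 2 did. A match is only a description of the letters. The stretches below show the element in the promoters of members that the results turn on, and of SSR4, which was not called higher with TG. They run 5′ to 3′ along the gene's strand, and the capitals mark TGACGTGG or its reverse complement.
SRP19, chr5:112861135-112861222, plus strand: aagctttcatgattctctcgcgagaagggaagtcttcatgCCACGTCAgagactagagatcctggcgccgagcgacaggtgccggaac
SSR3, chr3:156554126-156554206, minus strand: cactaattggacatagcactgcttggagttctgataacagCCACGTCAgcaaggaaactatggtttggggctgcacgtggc
SEC24A, chr5:134648566-134648653, plus strand: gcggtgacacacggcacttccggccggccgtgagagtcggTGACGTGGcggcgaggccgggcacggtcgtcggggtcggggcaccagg
KDELR3, chr22:38468010-38468095, plus strand: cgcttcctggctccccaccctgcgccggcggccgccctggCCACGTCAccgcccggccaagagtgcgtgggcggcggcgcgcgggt
COPB1, chr11:14499812-14499899, minus strand: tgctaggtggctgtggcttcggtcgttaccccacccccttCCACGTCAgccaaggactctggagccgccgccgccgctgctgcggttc
COPB2, chr3:139389796-139389883, minus strand: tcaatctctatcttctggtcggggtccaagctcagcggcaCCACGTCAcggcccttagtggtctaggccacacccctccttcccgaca
SSR4, chrX:153794499-153794586, plus strand: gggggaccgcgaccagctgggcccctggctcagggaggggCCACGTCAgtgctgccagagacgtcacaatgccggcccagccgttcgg

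Thapsigargin in siCTRL cells raised most of these genes in both lines. In LNCaP 33 of 52 members rose, where 24.6% of all genes tested were called higher, and 3 fell, where 25.1% of all genes were called lower. In C4-2B 28 rose, against 21.2% of all genes, and 1 fell, against 19.3% of all genes. The median log2 change of the members was 0.51 in LNCaP (all genes -0.04) and 0.38 in C4-2B (all genes -0.01), and single members ran from -0.53 to 2.20 in LNCaP and from -0.67 to 1.87 in C4-2B. In 32 of the 33 members that rose in LNCaP every siCTRL TG library was above every siCTRL library, and in 24 of the 28 in C4-2B. The same 27 genes rose in both lines, 81.8% of those called in LNCaP and 96.4% of those called in C4-2B. Neither the separation of libraries nor the overlap of calls was counted over all genes, so neither has a background here. SEC63, SEC24C, KDELR2, TMED9, TMED10 and SURF4 were called higher in LNCaP and not in C4-2B, and KDELR3 in C4-2B and not in LNCaP. Across the 52 members the log2 changes of the lines had a Pearson correlation of 0.94, against 0.84 over the 13458 genes tested in both, and genes are not independent replicates. Without the siCTRL and the siCTRL TG library that deviated most, 34 members rose and 1 fell in LNCaP, and 27 rose and 2 fell in C4-2B, an alternative added after seeing the data.

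**Figure D1:**
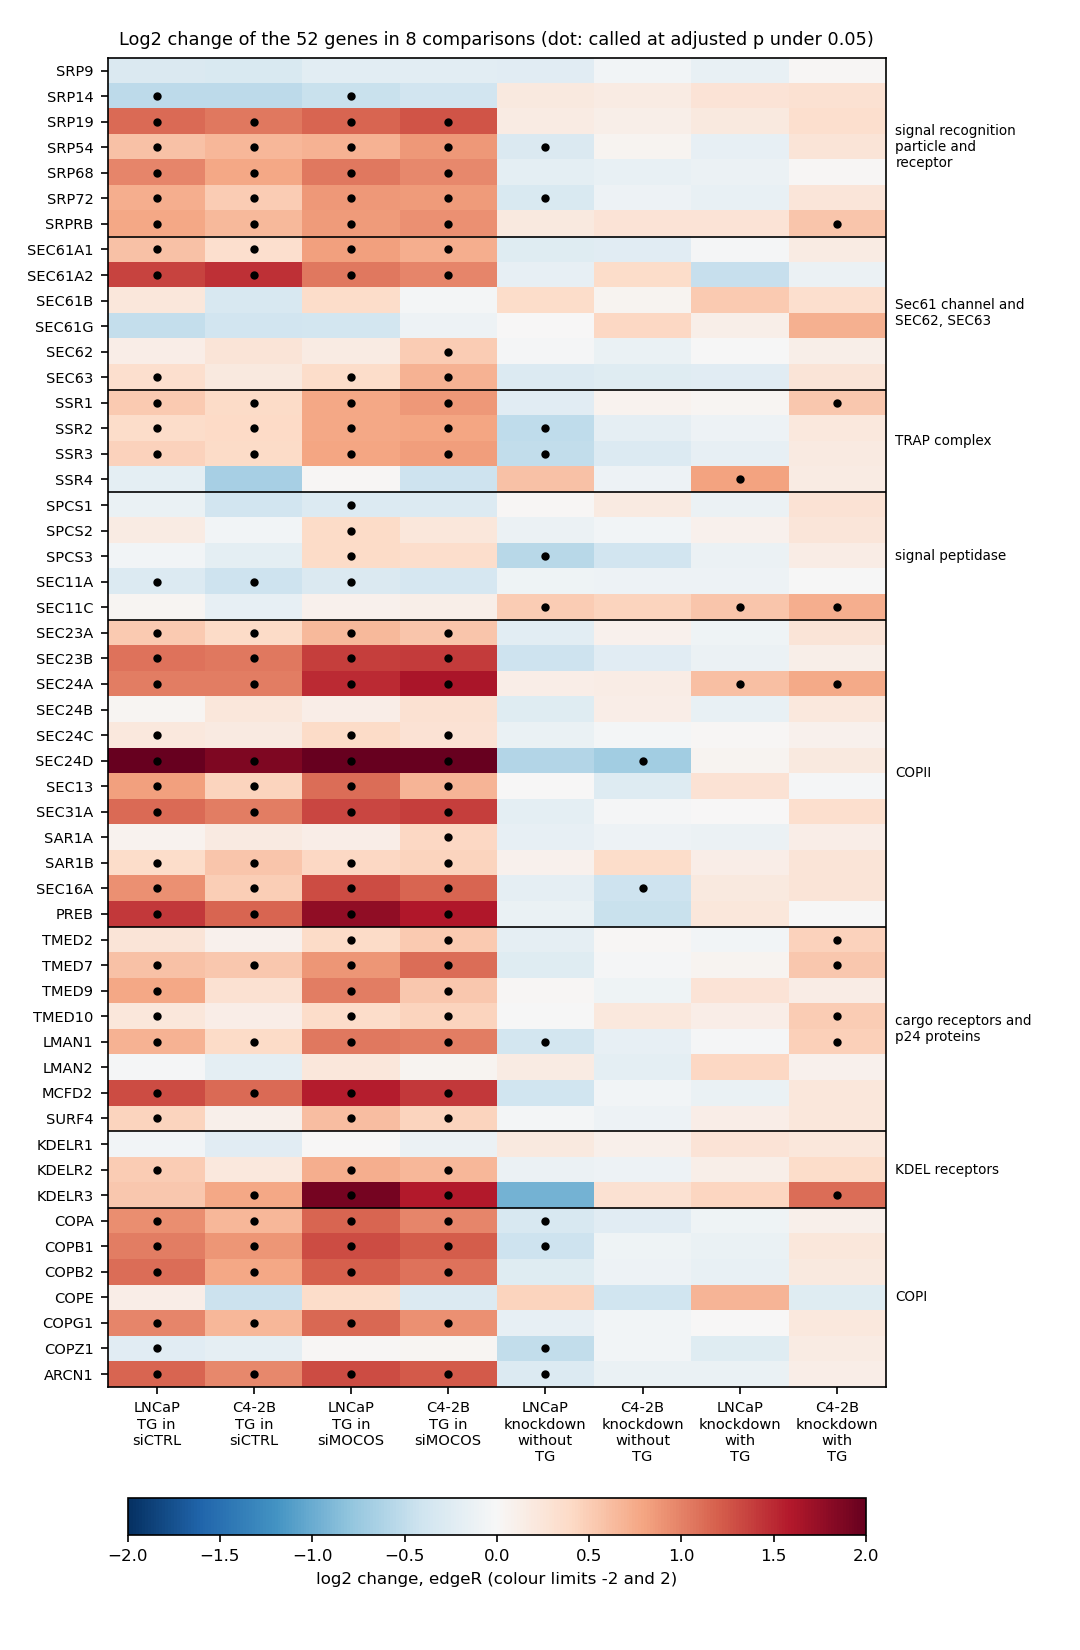
Log2 change of each of the 52 members (rows, ordered by role) in the TG comparisons and the knockdown comparisons of LNCaP and C4-2B (columns, n = 4 libraries a group), coloured from -2 to 2; a dot marks a call at an adjusted p under 0.05. The TG columns are mostly coloured as higher outside the signal peptidase, and the knockdown columns are pale, with 10 lower calls in LNCaP without TG and 9 higher calls in C4-2B with TG.

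Of the 7 SRP genes, which bring proteins to the channel, 5 rose in both lines (SRP19, SRP54, SRP68, SRP72 and SRPRB), with a median log2 change over all 7 of 0.72 in LNCaP and 0.65 in C4-2B. SRP19, a protein that helps assemble the particle on its RNA, was the SRP gene with the greatest rise. It had 261, 298, 348 and 301 CPM in LNCaP siCTRL TG against 134, 168, 144 and 108 CPM in siCTRL (log2 1.13, SE 0.135, adjusted p = 2.1e-06). In C4-2B SRP19 had 293, 261, 216 and 291 CPM in siCTRL TG against 142, 97.3, 139 and 134 CPM in siCTRL (log2 1.05, SE 0.143, adjusted p = 2.15e-05). The groups did not overlap in either line. SRP9 and SRP14 form the Alu domain, which slows elongation, and neither rose. SRP14 fell in LNCaP (log2 -0.53, adjusted p = 0.00201) and had the same log2 value of -0.53 in C4-2B, where it was not called (adjusted p = 0.0822). SRP9 was not called in LNCaP (log2 -0.29, adjusted p = 0.052) or in C4-2B (log2 -0.30, adjusted p = 0.169).

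The Sec61 channel is built from an alpha, a beta and a gamma subunit, and the alpha subunit, which forms the pore, has the paralogues SEC61A1 and SEC61A2. Both rose in both lines. SEC61A2 had 16.8, 14.4, 16.8 and 18.1 CPM in LNCaP siCTRL TG against 6.55, 5.54, 6.41 and 7.4 CPM in siCTRL (log2 1.35, SE 0.205, adjusted p = 2.86e-05). In C4-2B it had 13.3, 15.4, 10 and 14.7 CPM in siCTRL TG against 4.59, 5.14, 4.4 and 5.24 CPM in siCTRL (log2 1.46, SE 0.179, adjusted p = 6.71e-06). No library of one group reached the other. SEC61A1 had 1062, 1001, 954 and 1049 CPM in LNCaP siCTRL TG against 646, 605, 657 and 791 CPM in siCTRL, without overlap (log2 0.59, adjusted p = 2.67e-05). In C4-2B SEC61A1 had 898, 918, 1054 and 858 CPM in siCTRL TG against 695, 918, 686 and 655 CPM in siCTRL, where siCTRL replicate 2 reached the TG libraries (log2 0.34, adjusted p = 0.0289). That call was lost without siCTRL replicate 1, 3 or 4 or siCTRL TG replicate 2 or 3 (adjusted p = 0.0502 to 0.0899). SEC61B and SEC61G, the small subunits, were called in neither line. SEC63, which recruits the chaperone BiP to the channel, rose in LNCaP (log2 0.33, adjusted p = 0.0163, but 0.056 without siCTRL replicate 3, and log2 0.15 at 0.27 with offsets for GC content and transcript length), and SEC62, its partner, was called in neither line.

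In the TRAP complex SSR1, SSR2 and SSR3 rose in both lines, by log2 0.52, 0.37 and 0.46 in LNCaP and 0.39, 0.40 and 0.39 in C4-2B, while SSR4 had log2 -0.19 and -0.67 and was not called. The calls of SSR2 and SSR3 depended on single libraries. In LNCaP SSR2 was not called without siCTRL replicate 1, 2 or 3 (adjusted p = 0.0518 to 0.0932) and SSR3 without siCTRL replicate 3 (0.0507). In C4-2B SSR2 was lost without siCTRL replicate 1, 2 or 3 or siCTRL TG replicate 1, 2 or 4 (0.064 to 0.158), and SSR3 without siCTRL replicate 1, 3 or 4 or siCTRL TG replicate 1 or 3 (0.0583 to 0.0805). With offsets for GC content and length SSR3 was not called in LNCaP (log2 0.32, adjusted p = 0.0852) or C4-2B (log2 0.16, adjusted p = 0.388).

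The signal peptidase was the role in which no gene rose, with 0 of 5 called higher in either line and median log2 changes of -0.05 in LNCaP and -0.19 in C4-2B. SEC11A, one of its 2 catalytic subunits, fell. It had 92.2, 101, 114 and 88.6 CPM in LNCaP siCTRL TG against 125, 122, 110 and 121 CPM in siCTRL (log2 -0.27, SE 0.0955, adjusted p = 0.024). In C4-2B SEC11A had 94.6, 96.4, 63.4 and 87.1 CPM in siCTRL TG against 138, 94.1, 109 and 117 CPM in siCTRL (log2 -0.42, SE 0.141, adjusted p = 0.0233). The groups overlapped in both lines. The LNCaP call was lost without siCTRL replicate 1 or 2 or siCTRL TG replicate 1, 2 or 4 (adjusted p = 0.053 to 0.149), and the C4-2B call without siCTRL replicate 1 or 4 or siCTRL TG replicate 3 (0.0675 to 0.0827). Without the most deviating control libraries the LNCaP value was log2 -0.18 (adjusted p = 0.192). SEC11C, the alternative catalytic subunit, was not called in LNCaP (log2 0.04, adjusted p = 0.766) or C4-2B (log2 -0.16, adjusted p = 0.455). The accessory subunits SPCS1, SPCS2 and SPCS3 were not called either.

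The COPII coat held the greatest single changes. Of 12 genes, 10 rose in LNCaP and 9 in C4-2B, with median log2 changes of 0.87 and 0.52. SEC24D, a cargo-binding subunit of the inner coat (chromosome 4, 118722823 to 118836126, GRCh38), had the greatest change of all 52 members in both lines. It had 544, 489, 482 and 585 CPM in LNCaP siCTRL TG against 105, 107, 121 and 124 CPM in siCTRL (log2 2.20, SE 0.233, adjusted p = 4.94e-07). In C4-2B it had 396, 351, 393 and 356 CPM in siCTRL TG against 83.6, 132, 102 and 90.7 CPM in siCTRL (log2 1.87, SE 0.231, adjusted p = 7.22e-06). Every TG library stood well above the controls. PREB, also called SEC12, is the exchange factor that loads SAR1 with GTP and so starts coat assembly (chromosome 2, 27130756 to 27134636). It had 163, 175, 136 and 132 CPM in LNCaP siCTRL TG against 50.7, 63.3, 64.2 and 48 CPM in siCTRL (log2 1.42, SE 0.173, adjusted p = 2.55e-06). In C4-2B PREB had 127, 128, 77.6 and 119 CPM in siCTRL TG against 43.3, 45.7, 53.5 and 58.9 CPM in siCTRL (log2 1.16, SE 0.219, adjusted p = 0.000455). The groups were apart in both lines, and siCTRL TG replicate 3 of C4-2B was the lowest of its group.

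SEC31A forms the outer cage with SEC13. It had 685, 607, 664 and 641 CPM in LNCaP siCTRL TG against 289, 283, 278 and 337 CPM in siCTRL (log2 1.13, SE 0.0879, adjusted p = 1.21e-08), and 521, 513, 590 and 504 CPM in C4-2B siCTRL TG against 262, 315, 237 and 229 CPM in siCTRL (log2 1.03, SE 0.113, adjusted p = 2.21e-06). The groups were apart in both lines. SEC13 rose by log2 0.82 in LNCaP (adjusted p = 1.05e-05) and 0.45 in C4-2B (adjusted p = 0.0486), the second call lost without siCTRL replicate 1, 2 or 3 or siCTRL TG replicate 1, 2 or 4 (0.0748 to 0.127). SEC16A, which marks ER exit sites, rose by log2 0.92 in LNCaP (adjusted p = 8.58e-07) and 0.49 in C4-2B (adjusted p = 0.0106).

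**Figure D2:**
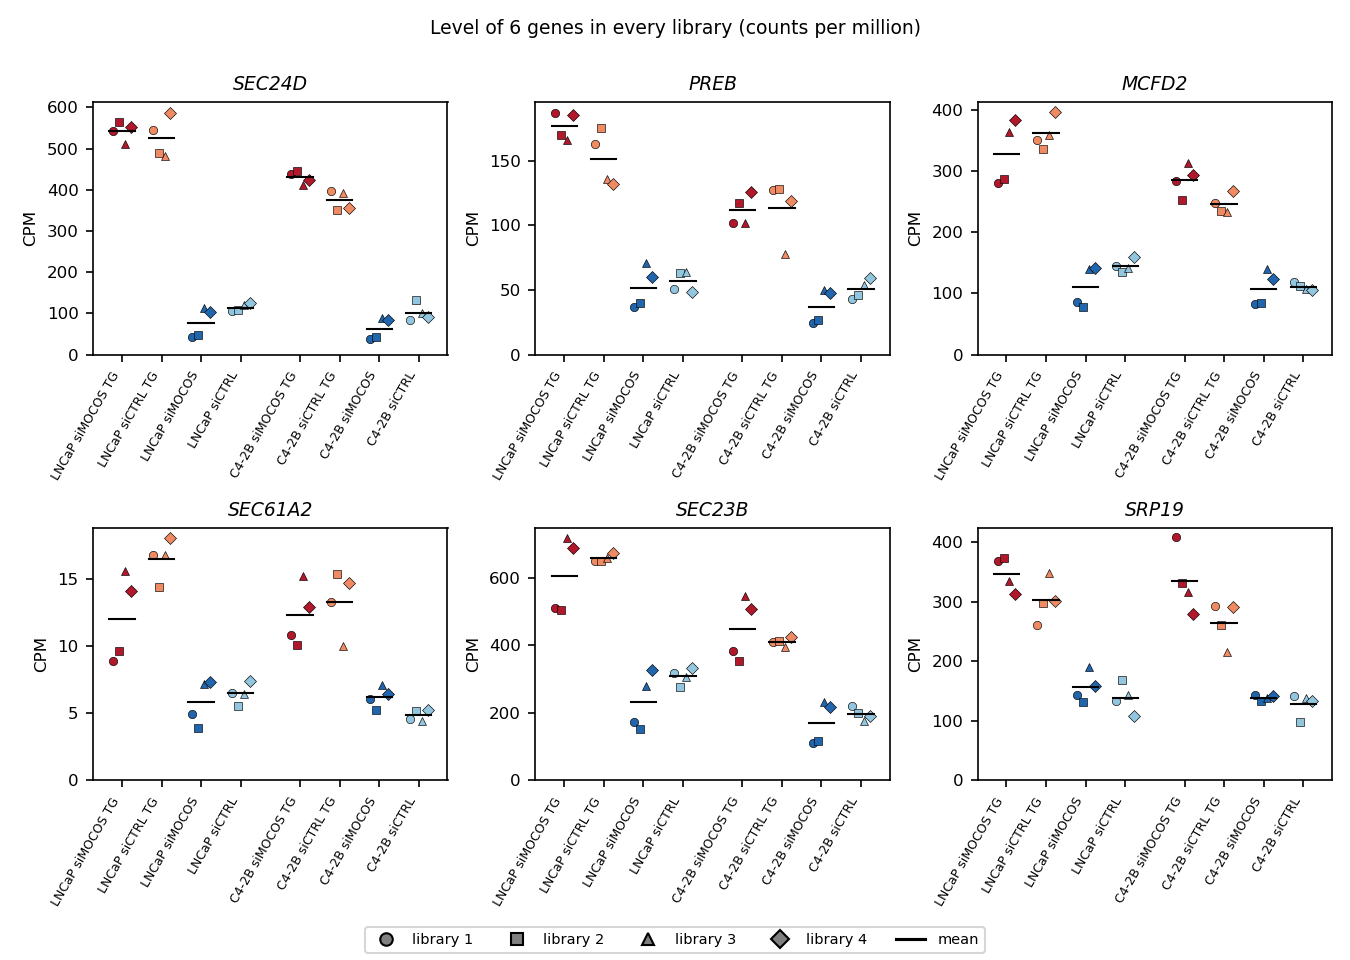
Level in CPM of SEC24D, PREB, MCFD2, SEC61A2, SEC23B and SRP19 in each library (points; bars, mean of 4 libraries) of the groups of LNCaP and C4-2B, with siMOCOS TG, siCTRL TG, siMOCOS and siCTRL from left to right. In each line the TG libraries lie above those without TG, and in siMOCOS without TG a pair of libraries of SEC24D lies below 50 CPM and the other pair at or above 82.9 CPM.

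Most COPII parts come as paralogues, whose values are given side by side, since differences between paralogues were not tested. SEC23A and SEC23B encode the inner coat subunit that activates the GTPase SAR1. SEC23B had 649, 649, 659 and 671 CPM in LNCaP siCTRL TG against 318, 276, 305 and 332 CPM in siCTRL (log2 1.09, SE 0.187, adjusted p = 0.000103), and 409, 413, 393 and 425 CPM in C4-2B siCTRL TG against 219, 199, 176 and 191 CPM in siCTRL (log2 1.06, SE 0.209, adjusted p = 0.000653). SEC23A had 231, 247, 261 and 269 CPM in LNCaP siCTRL TG against 190, 160, 174 and 182 CPM in siCTRL (log2 0.52, adjusted p = 0.000183), and 246, 240, 256 and 269 CPM in C4-2B siCTRL TG against 221, 194, 189 and 167 CPM in siCTRL (log2 0.39, adjusted p = 0.00653). Both paralogues rose without overlap of the groups, though with offsets for GC content and length SEC23A was not called in C4-2B (log2 0.18, adjusted p = 0.0862). Of the cargo-binding SEC24 paralogues, SEC24A had 211, 164, 202 and 218 CPM in LNCaP siCTRL TG against 92.4, 89.8, 93.7 and 117 CPM in siCTRL (log2 1.02, SE 0.12, adjusted p = 1.7e-06). In C4-2B SEC24A had 223, 199, 235 and 200 CPM in siCTRL TG against 97.5, 137, 98.4 and 87.2 CPM in siCTRL (log2 1.03, SE 0.132, adjusted p = 1.12e-05). SEC24A thus rose in both lines with the groups apart, as SEC24D did. SEC24B was not called in LNCaP, with 98.1, 77.7, 96.3 and 108 CPM in siCTRL TG against 93.1, 80.4, 86.6 and 110 CPM in siCTRL (log2 0.04, adjusted p = 0.802). It was not called in C4-2B either, with 73.3, 68.1, 84.5 and 62 CPM in siCTRL TG against 64.6, 75.3, 54.7 and 52.6 CPM in siCTRL (log2 0.22, adjusted p = 0.24). Its groups overlapped in both lines. SEC24C rose in LNCaP by log2 0.21 (adjusted p = 0.0284, lost without siCTRL replicate 1, 2 or 3, 0.0601 to 0.0867) and had log2 0.18 in C4-2B (adjusted p = 0.129). The GTPase paralogue SAR1B rose by log2 0.37 in LNCaP (adjusted p = 0.00616) and 0.55 in C4-2B (adjusted p = 0.00872). SAR1A was not called, with log2 0.07 in LNCaP (adjusted p = 0.498) and 0.18 in C4-2B (adjusted p = 0.237). How reads shared by close copies such as SAR1A and SAR1B were divided is part of the authors' estimation and is not covered by these errors.

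**Figure D3:**
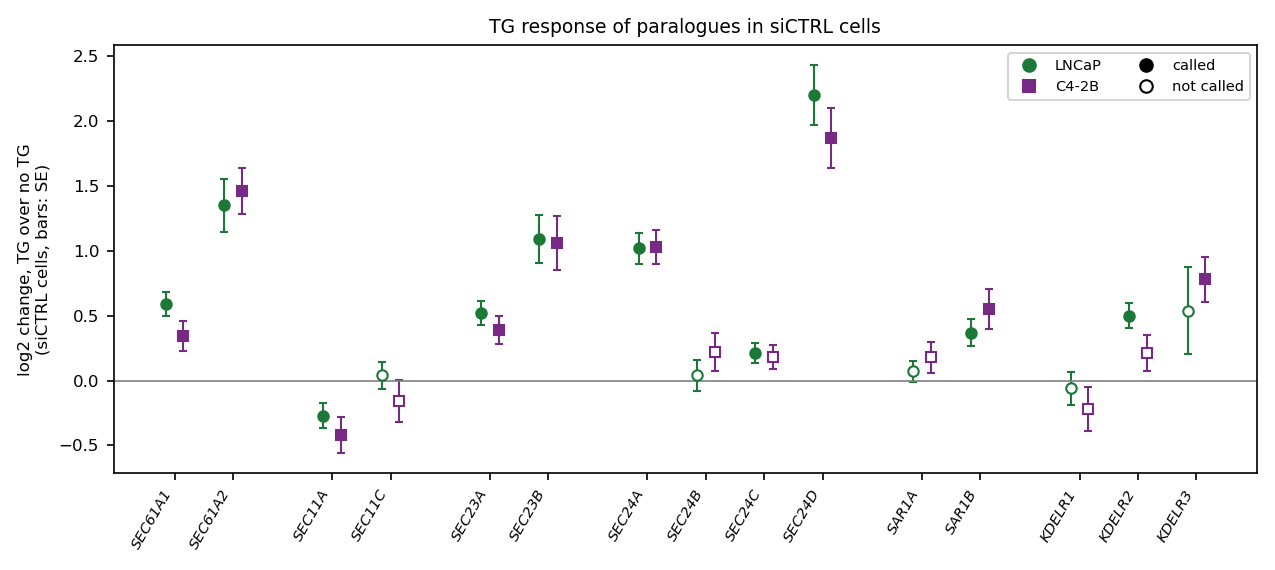
Log2 change with TG in siCTRL cells (vertical axis, with standard error) of the paralogues of SEC61A, SEC11, SEC23, SEC24, SAR1 and KDELR, LNCaP left of C4-2B; filled points were called at an adjusted p under 0.05. Within SEC24 the values run from 0.04 for SEC24B in LNCaP to 2.20 for SEC24D in LNCaP, and SEC11A lies below 0 in both lines.

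Of the 8 cargo receptors and p24 proteins, 6 rose in LNCaP and 3 in C4-2B, with median log2 changes of 0.51 and 0.22. LMAN1 and MCFD2 form the receptor that carries coagulation factors V and VIII and other glycoproteins out of the ER. MCFD2 (chromosome 2, 46901870 to 46941855) had 351, 335, 359 and 396 CPM in LNCaP siCTRL TG against 145, 135, 142 and 159 CPM in siCTRL (log2 1.31, SE 0.167, adjusted p = 4.35e-06). In C4-2B MCFD2 had 248, 234, 233 and 267 CPM in siCTRL TG against 119, 112, 107 and 106 CPM in siCTRL (log2 1.14, SE 0.15, adjusted p = 1.46e-05). The groups were far apart in both lines. LMAN1 rose by log2 0.70 in LNCaP (adjusted p = 2.35e-05) and 0.38 in C4-2B (adjusted p = 0.0194), where the call was lost without siCTRL replicate 3 or siCTRL TG replicate 4 (0.0541 to 0.069) and with offsets for GC content and length (log2 0.13, adjusted p = 0.345). The p24 protein TMED7 rose by log2 0.58 in LNCaP (adjusted p = 0.000389) and 0.54 in C4-2B (adjusted p = 0.00228, but log2 0.29 at 0.0511 with the same offsets). SURF4, a receptor for soluble cargo, and the p24 proteins TMED9 and TMED10 rose in LNCaP, by log2 0.44, 0.77 and 0.22, TMED10 no longer without siCTRL replicate 2 (adjusted p = 0.0517) or with the offsets (log2 0.08, adjusted p = 0.34). LMAN2, a lectin, and TMED2 were called in neither line.

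Of the 3 KDEL receptors, which return escaped chaperones from the Golgi, 1 was called higher in each line, and differences between them were not tested. KDELR2 rose in LNCaP, with 400, 469, 507 and 495 CPM in siCTRL TG against 359, 323, 327 and 313 CPM in siCTRL (log2 0.50, SE 0.0942, adjusted p = 0.000261). In C4-2B KDELR2 had 334, 350, 327 and 332 CPM in siCTRL TG against 282, 388, 236 and 253 CPM in siCTRL and was not called (log2 0.21, adjusted p = 0.23). Its groups overlapped in C4-2B through siCTRL replicate 2. KDELR3 rose in C4-2B, with 20.8, 18.9, 12.2 and 18.8 CPM in siCTRL TG against 10.6, 9.48, 9.21 and 11.7 CPM in siCTRL (log2 0.78, SE 0.174, adjusted p = 0.00181). In LNCaP KDELR3 had 3.52, 4.02, 4.19 and 3.95 CPM in siCTRL TG against 1.5, 1.92, 1.95 and 5.73 CPM in siCTRL (log2 0.54, adjusted p = 0.193). There siCTRL replicate 4 alone lay above the TG libraries, and without it KDELR3 was called higher (log2 1.13, adjusted p = 0.00122). KDELR1 was called in neither line, with log2 -0.06 in LNCaP (adjusted p = 0.704) and -0.22 in C4-2B (adjusted p = 0.302).

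In the COPI coat 5 of 7 subunits rose in both lines, with a median log2 change over all 7 of 0.98 in LNCaP and 0.66 in C4-2B. ARCN1, the delta subunit, had 686, 677, 782 and 827 CPM in LNCaP siCTRL TG against 373, 322, 323 and 308 CPM in siCTRL (log2 1.16, SE 0.0914, adjusted p = 1.34e-08). In C4-2B ARCN1 had 656, 625, 779 and 699 CPM in siCTRL TG against 374, 410, 329 and 304 CPM in siCTRL (log2 0.96, SE 0.115, adjusted p = 5.25e-06). The groups of ARCN1 were apart in both lines. COPA, COPB1, COPB2 and COPG1, the alpha, beta, beta-prime and gamma subunits, rose by log2 0.93, 1.02, 1.11 and 0.98 in LNCaP and by 0.66, 0.88, 0.78 and 0.66 in C4-2B. Neither COPE nor COPZ1, the epsilon and zeta subunits, was called higher. COPE was called in neither line (log2 0.13 in LNCaP, adjusted p = 0.76, and -0.43 in C4-2B, adjusted p = 0.449), and COPZ1 fell in LNCaP (log2 -0.23, adjusted p = 0.0363) and had log2 -0.18 in C4-2B (adjusted p = 0.196). The fall of COPZ1 in LNCaP was lost without siCTRL replicate 4 or any 1 of the 4 siCTRL TG libraries (adjusted p = 0.0988 to 0.197), and without both most deviating control libraries it was log2 -0.09 (adjusted p = 0.438).

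The members that did not rise were often short transcripts. Length here is that of a representative transcript, the one of median length among those the annotation ranks highest for the gene. Which transcripts these cells expressed was not tested. Of the 12 members with a representative transcript under 1300 nucleotides, a limit chosen after the values were seen, 3 rose in each line (SSR2, SAR1B and MCFD2), with a median log2 change of 0.09 in LNCaP and -0.26 in C4-2B. Of the other 40, 30 rose in LNCaP and 25 in C4-2B, with medians of 0.58 and 0.42. Across the 52 members the log2 change correlated with log2 transcript length at a Pearson r of 0.43 in LNCaP and 0.44 in C4-2B, against 0.03 and 0.07 over all genes with a length, all from the same libraries. Transcript length also moved with single libraries, since how far genes stood from the mean of their group correlated with it at 0.423 in C4-2B siCTRL TG replicate 3 and 0.405 in C4-2B siCTRL replicate 2. With offsets for GC content and length, 30 members rose and 4 fell in LNCaP, and 25 rose and 5 fell in C4-2B. The part of length in the response of single members was not tested.

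All 33 members that rose with TG in LNCaP siCTRL cells, and all 28 in C4-2B, also rose with TG after MOCOS knockdown. In LNCaP siMOCOS cells 37 members rose, against 25.1% of all genes, and 3 fell, against 21.9% of all genes. In C4-2B siMOCOS cells 37 rose, against 20.7% of all genes, and 0 fell, against 17.2% of all genes, with SEC11A at log2 -0.34 (adjusted p = 0.0669) as the member nearest to a lower call. The median log2 change was 0.75 in LNCaP (all genes -0.01) and 0.69 in C4-2B (all genes -0.02). The lines shared 35 of their 37 rises, 94.6% of each. The log2 changes of the lines had a Pearson correlation of 0.95 over the members and 0.85 over the 13458 genes tested in both. Over both lines and both siRNAs, comparisons that share no library, 27 members rose in all 4, among them all 5 COPI subunits named above, SRP19, SEC24A, SEC24D, SEC31A, PREB and MCFD2. The 13 that rose in none were SEC61B, SEC61G, SSR4, SPCS1, SEC11A, SEC11C, SRP9, SRP14, SEC24B, KDELR1, COPE, COPZ1 and LMAN2. Calls shared between comparisons were not counted over all genes, so these counts have no background here. DESeq2 called 1 member lower in C4-2B siMOCOS cells, and limma voom 0.

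By role, 10 of 12 COPII genes rose in LNCaP siMOCOS cells (median log2 1.20) and 11 in C4-2B (median 0.92), and 5 of 7 COPI genes rose in each line (medians 1.16 and 0.98). SEC24D had 542, 565, 512 and 553 CPM in LNCaP siMOCOS TG against 42.9, 47, 114 and 103 CPM in siMOCOS (log2 2.83, adjusted p = 3.56e-08). In C4-2B it had 437, 445, 412 and 424 CPM in siMOCOS TG against 37.3, 41.9, 89 and 82.9 CPM in siMOCOS (log2 2.77, SE 0.238, adjusted p = 1.5e-07). The libraries without TG formed a low and a high pair in both lines, and none came near the TG libraries. By adjusted p SEC31A led in LNCaP, with 626, 681, 682 and 605 CPM in siMOCOS TG against 257, 228, 274 and 276 CPM in siMOCOS (log2 1.33, SE 0.0884, adjusted p = 1.78e-09). SEC24A led in C4-2B, with 390, 370, 350 and 335 CPM in siMOCOS TG against 122, 126, 115 and 104 CPM in siMOCOS (log2 1.63, SE 0.134, adjusted p = 8.82e-08). Both had groups far apart. COPB1 had 253, 268, 277 and 302 CPM in LNCaP siMOCOS TG against 107, 99.3, 110 and 131 CPM in siMOCOS (log2 1.30, adjusted p = 5.88e-09), and SEC16A had 333, 387, 299 and 367 CPM against 138, 149, 141 and 135 CPM (log2 1.30, adjusted p = 1.55e-08). ARCN1 rose by log2 1.31 in LNCaP and 1.22 in C4-2B (adjusted p = 3.48e-09 and 4.14e-07).

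Among the KDEL receptors, KDELR2 and KDELR3 rose with TG in siMOCOS cells of both lines. KDELR3 had 4.18, 4.68, 6.91 and 5.39 CPM in LNCaP siMOCOS TG against 1.11, 1.04, 1.96 and 1.63 CPM in siMOCOS (log2 1.91, SE 0.361, adjusted p = 0.000273). In C4-2B KDELR3 had 43.1, 32.4, 42.9 and 34.2 CPM in siMOCOS TG against 12, 10.5, 14.6 and 13.5 CPM in siMOCOS (log2 1.59, SE 0.173, adjusted p = 1.92e-06). Its groups did not overlap in either line. KDELR2 rose by log2 0.72 in LNCaP and 0.67 in C4-2B, and 7 of 8 cargo receptors and p24 proteins rose in each line. The signal peptidase had 2 higher calls in LNCaP (SPCS2, log2 0.38, and SPCS3, log2 0.39) and 0 in C4-2B. SEC11A, SPCS1 and SRP14 fell in LNCaP siMOCOS cells, by log2 -0.29, -0.28 and -0.45, the first no longer called without siMOCOS replicate 4 (adjusted p = 0.0764) and SPCS1 not without siMOCOS replicate 1 or 3 (0.0507 to 0.0717). With knockdown columns 1 and 2 alone SRP14 had log2 -0.27 and was not called (adjusted p = 0.216), and SPCS3 was not called with columns 3 and 4 (log2 0.19, adjusted p = 0.258) or with the offsets (log2 0.19, adjusted p = 0.176). That these calls passed in siMOCOS and not in siCTRL cells is no test of a difference, which is given with the interaction.

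**Figure D4:**
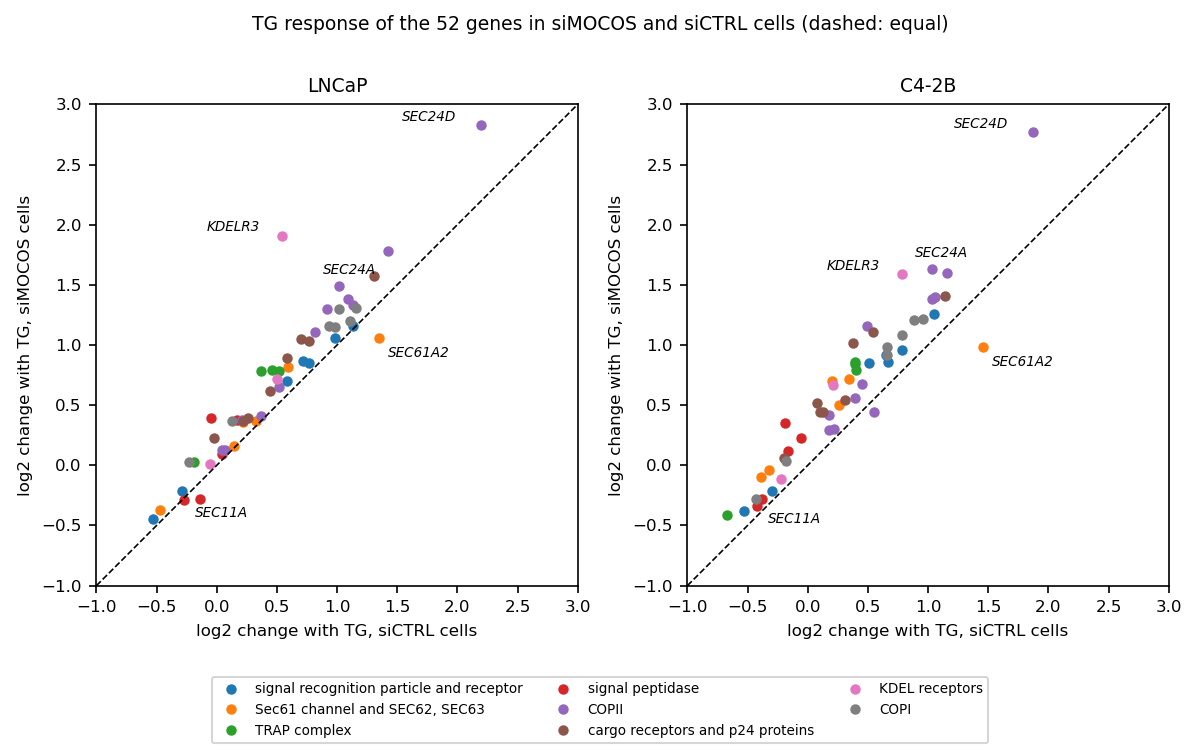
Log2 change of each of the 52 members with TG in siMOCOS cells (vertical axis) against that in siCTRL cells (horizontal axis), for LNCaP (left) and C4-2B (right), coloured by role; the dashed line marks equal values. The points lie above the line in 49 of 52 members in LNCaP and 50 of 52 in C4-2B, and in neither line was the difference called for any member.

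Knockdown of MOCOS without TG gave few calls, in a comparison that shares its siCTRL libraries with the TG response of siCTRL cells. In LNCaP 1 member rose, against 6% of all genes, and 10 fell, against 9.73% of all genes, so that the share of members that fell was above that of all genes and the share that rose below it. In C4-2B 0 rose, against 9.09% of all genes, and 2 fell, against 8.14% of all genes. DESeq2 called 1 higher and 2 lower in C4-2B, and limma voom 0 and 1. At an unadjusted p under 0.05 the members numbered 23 of 52 in LNCaP (4256 of all 13806 genes) and 8 in C4-2B (4271 of all 14127 genes). The median log2 change was -0.18 in LNCaP (all genes -0.02) and -0.07 in C4-2B (all genes 0.00). The LNCaP count rested on single libraries of both groups. It was 5 members without siMOCOS replicate 2 and also 5 without siCTRL replicate 4, and without both siCTRL replicate 4 and siCTRL TG replicate 4 it was 1 higher and 3 lower, while without siMOCOS replicate 4 it was 15. With offsets for GC content and length 3 of the 11 calls remained, those of COPZ1, SSR2 and SEC11C. Upper-quartile scaling gave 1 higher and 5 lower, and among all genes called it turned the share of higher calls to 56.9%, against 38.2% with TMM. In C4-2B the same scaling gave 2 higher and 0 lower, with 65.7% of all calls higher against 52.8%, and without siCTRL replicate 2 and siCTRL TG replicate 3 the count was 0.

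The 10 members that fell in LNCaP were 4 COPI subunits, 2 SRP genes, 2 TRAP genes, SPCS3 and LMAN1. COPZ1, the zeta subunit of COPI (chromosome 12, 54325131 to 54351846), had 184, 160, 176 and 193 CPM in LNCaP siMOCOS against 243, 241, 238 and 282 CPM in siCTRL (log2 -0.49, SE 0.0865, adjusted p = 0.000886). SPCS3, a signal peptidase subunit needed for its activity, had 85.1, 83.8, 90.7 and 111 CPM in LNCaP siMOCOS against 147, 123, 124 and 154 CPM in siCTRL (log2 -0.56, SE 0.108, adjusted p = 0.00171), a call lost with offsets for GC content and length (0.0516). COPB1 had 107, 99.3, 110 and 131 CPM in LNCaP siMOCOS against 158, 138, 156 and 147 CPM in siCTRL (log2 -0.42, SE 0.094, adjusted p = 0.00563), lost with the same offsets (0.0768). In all 3 genes every knockdown library was below every control library. SRP54, the GTPase that binds the signal sequence, fell by log2 -0.29 (adjusted p = 0.0105), a call lost in 6 other settings, with log2 -0.15 (adjusted p = 0.122) under the offsets. The other falls, unlike that of SRP54, depended on single libraries. SRP72 (log2 -0.30) was lost without siCTRL replicate 4 or siMOCOS replicate 2 (adjusted p = 0.0554 to 0.0561). SSR2 (log2 -0.51) was lost without the same libraries (0.0506 to 0.0508). LMAN1 (log2 -0.37) was lost without siCTRL replicate 1 or 4 or siMOCOS replicate 2 (0.0583 to 0.0744). SSR3 (log2 -0.50) was lost without siCTRL replicate 1 or 4 or siMOCOS replicate 1 or 2 (0.0535 to 0.103). COPA (log2 -0.32) was lost without siCTRL replicate 1, 3 or 4 or siMOCOS replicate 1, 2 or 3 (0.0508 to 0.0933). ARCN1 (log2 -0.27) was lost without any 1 of the 8 libraries (0.0503 to 0.155).

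SEC11C, the alternative catalytic subunit of the signal peptidase, went the other way. It had 224, 222, 295 and 285 CPM in LNCaP siMOCOS against 166, 201, 179 and 175 CPM in siCTRL (log2 0.51, SE 0.103, adjusted p = 0.00272). In C4-2B SEC11C had 300, 275, 233 and 250 CPM in siMOCOS against 170, 203, 196 and 204 CPM in siCTRL and was not called (log2 0.45, SE 0.163, adjusted p = 0.0655). In both lines every knockdown library was above every control library. The 2 falls in C4-2B were SEC24D and SEC16A. SEC24D had 37.3, 41.9, 89 and 82.9 CPM in C4-2B siMOCOS against 83.6, 132, 102 and 90.7 CPM in siCTRL (log2 -0.70, SE 0.226, adjusted p = 0.0399), with overlap of the groups and the call lost without siCTRL replicate 2, 3 or 4 or siMOCOS replicate 1 or 2 (0.063 to 0.13), and with a log2 of -0.25 (0.354) with knockdown columns 3 and 4 alone. SEC16A had 121, 135, 136 and 142 CPM in C4-2B siMOCOS against 146, 241, 177 and 151 CPM in siCTRL (log2 -0.42, SE 0.141, adjusted p = 0.048), lost without siCTRL replicate 2 or 3 or any 1 of the 4 siMOCOS libraries (0.0624 to 0.175), and with a log2 of -0.25 (0.15) without the most deviating control libraries. Neither gene was called in LNCaP, nor was COPZ1 called in C4-2B (log2 -0.06, adjusted p = 0.733).

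With TG present, knockdown raised 9 members in C4-2B, against 9.21% of all genes, and lowered 0, against 7.6% of all genes. In LNCaP it raised 3, against 11.7% of all genes, and lowered 0, against 10.2% of all genes. The unadjusted p was under 0.05 in 13 of 52 members in LNCaP (4973 of all 13806 genes) and 16 in C4-2B (4223 of all 14127 genes). The median log2 change was 0.00 in LNCaP (all genes 0.01) and 0.22 in C4-2B (all genes 0.01). DESeq2 called 4 higher and 2 lower in LNCaP and limma voom 5 higher and 2 lower, while both gave 10 higher and 0 lower in C4-2B. SEC11C and SEC24A were called higher in both lines, 66.7% of the LNCaP calls and 22.2% of the C4-2B calls. The LNCaP count ran from 2 without siCTRL TG replicate 1 to 7 without siCTRL TG replicate 2. The C4-2B count was 15 with knockdown columns 1 and 2 alone and 6 with columns 3 and 4 alone, where 5 of the 9 calls remained and LMAN1, SEC11C, SRPRB and TMED7 were not called (adjusted p = 0.0616 to 0.0998). The share of all genes called in such fits is not given here.

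SEC24A had 278, 360, 281 and 286 CPM in LNCaP siMOCOS TG against 211, 164, 202 and 218 CPM in siCTRL TG (log2 0.60, SE 0.118, adjusted p = 0.0017). In C4-2B it had 390, 370, 350 and 335 CPM in siMOCOS TG against 223, 199, 235 and 200 CPM in siCTRL TG (log2 0.75, SE 0.131, adjusted p = 0.000564). The groups were apart in both lines. SEC11C had 293, 288, 255 and 258 CPM in LNCaP siMOCOS TG against 180, 186, 199 and 177 CPM in siCTRL TG (log2 0.56, SE 0.103, adjusted p = 0.000956), and in C4-2B it rose too (log2 0.73, adjusted p = 0.0044, but log2 0.42 at 0.0743 with columns 3 and 4 alone). KDELR3 had 43.1, 32.4, 42.9 and 34.2 CPM in C4-2B siMOCOS TG against 20.8, 18.9, 12.2 and 18.8 CPM in siCTRL TG (log2 1.11, SE 0.17, adjusted p = 0.000168), the greatest rise among the members in this comparison. In LNCaP KDELR3 had 4.18, 4.68, 6.91 and 5.39 CPM in siMOCOS TG against 3.52, 4.02, 4.19 and 3.95 CPM in siCTRL TG and was not called (log2 0.43, adjusted p = 0.351). Its groups were apart in C4-2B and overlapped in LNCaP.

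The other C4-2B rises were mostly cargo carriers and parts of the entry machinery. TMED10, a p24 protein, had 576, 535, 511 and 463 CPM in C4-2B siMOCOS TG against 355, 378, 356 and 376 CPM in siCTRL TG (log2 0.51, SE 0.0949, adjusted p = 0.00103). SSR1, the alpha subunit of TRAP, had 713, 588, 662 and 534 CPM in C4-2B siMOCOS TG against 432, 396, 445 and 448 CPM in siCTRL TG (log2 0.54, SE 0.109, adjusted p = 0.00219). No library of one group reached the other in either gene. TMED7 (log2 0.54, adjusted p = 0.00528), SRPRB, the membrane anchor of the SRP receptor (log2 0.55, adjusted p = 0.0065), TMED2 (log2 0.46, adjusted p = 0.00995) and LMAN1 (log2 0.47, adjusted p = 0.0125) also rose there, LMAN1 no longer without siMOCOS TG replicate 1 (0.0569). The third LNCaP call was SSR4, with 43.5, 33, 27.1 and 20.7 CPM in siMOCOS TG against 18.7, 23.1, 16.8 and 12.9 CPM in siCTRL TG (log2 0.80, SE 0.264, adjusted p = 0.0382). Its groups overlapped, and the call was lost without siCTRL TG replicate 1, 3 or 4 or siMOCOS TG replicate 1 or 2 (0.0774 to 0.164), and with the offsets (log2 0.37, 0.149).

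**Figure D5:**
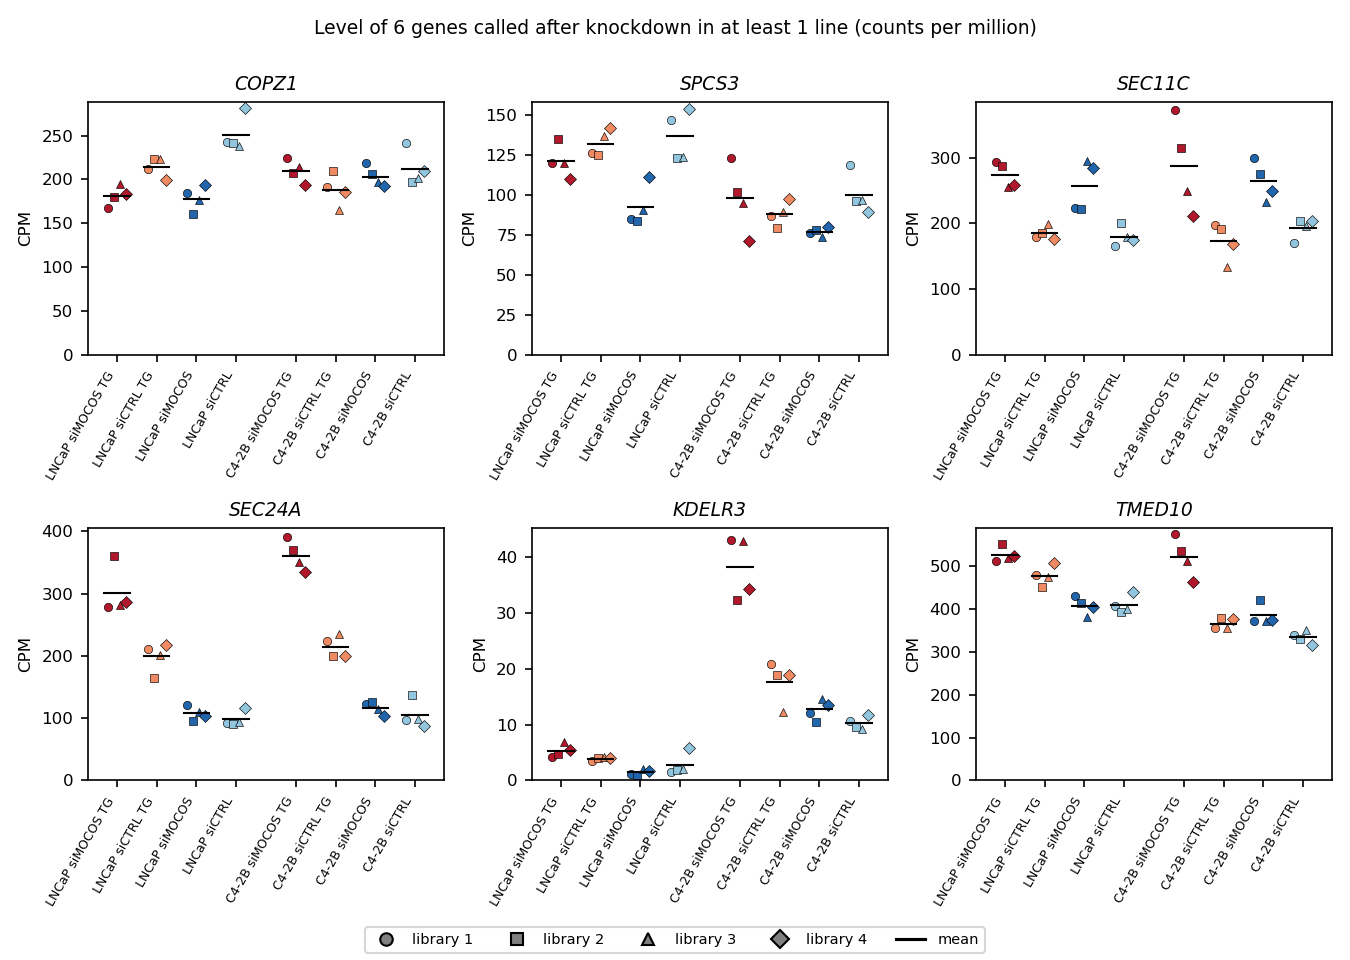
Level in CPM of COPZ1, SPCS3, SEC11C, SEC24A, KDELR3 and TMED10 in each library (points; bars, mean of 4 libraries), grouped as siMOCOS TG, siCTRL TG, siMOCOS and siCTRL from left to right in LNCaP and C4-2B. COPZ1 and SPCS3 are lower in LNCaP siMOCOS than in siCTRL, SEC11C is higher in siMOCOS with and without TG, and KDELR3 of LNCaP has 1 siCTRL library at 5.73 CPM.

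The knockdown libraries without TG were not alike in these genes. The columns do not name the siRNA, so the columns are only compared as numbered, a comparison chosen after the values were seen and given without a test. In LNCaP siMOCOS, columns 1 and 2 both lay below columns 3 and 4 for 33 of 52 members, 63.5%, against 30.4% of all genes, and above them for 2 members, 3.85%, against 27.3% of all genes. In C4-2B siMOCOS they lay below for 24 members, 46.2%, against 37.6% of all genes, and above for 17, 32.7%, against 36.3%. In both lines alike they lay below for 22 members, 42.3%, against 23.1% of the genes tested in both. They lay above in both lines for 1 member, SRP9, 1.92%, against 20.8% of those genes. The 22 included SEC24D, SEC23B, PREB, MCFD2, SEC61A1, SEC61A2 and all 4 TRAP genes.

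SEC24D showed the pattern in both lines, with 42.9 and 47 CPM in columns 1 and 2 of LNCaP siMOCOS and 114 and 103 CPM in columns 3 and 4, and with 37.3 and 41.9 CPM in columns 1 and 2 of C4-2B siMOCOS and 89 and 82.9 CPM in columns 3 and 4. SEC23B had 172 and 153 CPM in columns 1 and 2 of LNCaP siMOCOS and 280 and 325 CPM in columns 3 and 4, and 111 and 117 CPM in columns 1 and 2 of C4-2B siMOCOS and 231 and 216 CPM in columns 3 and 4. In both genes the high pair lay near the control libraries and the low pair beneath them. PREB had 37 and 39.9 CPM in columns 1 and 2 of LNCaP siMOCOS and 70.9 and 59.6 CPM in columns 3 and 4, and MCFD2 85.8 and 77.6 CPM in columns 1 and 2 and 139 and 141 CPM in columns 3 and 4. Relative to the siCTRL mean (log2 of CPM plus 0.5) the median member stood at -0.23, -0.33, -0.10 and -0.02 in columns 1 to 4 of LNCaP siMOCOS, where the median of all genes ran from -0.04 to -0.01. In C4-2B siMOCOS it stood at -0.02, -0.07, 0.00 and 0.01. With columns 1 and 2 alone the knockdown without TG called 1 member higher and 16 lower in LNCaP and 2 higher and 6 lower in C4-2B, and with columns 3 and 4 alone 6 higher and 5 lower in LNCaP and 0 in C4-2B. The share of all genes called in these fits is not given here, so these counts have no background. With TG, columns 1 and 2 lay below columns 3 and 4 in both lines for 9 members, 17.3%, against 24% of the genes tested in both. They lay above in both lines for 11 members, 21.2%, against 21.2% of those genes. In C4-2B siMOCOS TG alone they lay above for 21 members, 40.4%, against 30.2% of all genes, and below for 9, 17.3%, against 30.3%. In LNCaP siMOCOS TG they lay above for 13, 25%, against 34.2%, and below for 16, 30.8%, against 34%. Control libraries, which carry no siRNA against MOCOS, also divided by column number, with columns 1 and 2 below columns 3 and 4 for 19 members in LNCaP siCTRL TG, 36.5%, against 20.4% of all genes, and above for 19 in C4-2B siCTRL, 36.5%, against 29.4%.

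The interaction asks whether the effect of knockdown with TG differs from that without it. By edgeR 0 members were called in LNCaP, against 0.00724% of all genes, and 0 in C4-2B, against 0.0708% of all genes, and DESeq2 and limma voom also called 0. The unadjusted p was under 0.05 for 7 members in LNCaP (918 of all 13806 genes) and 16 in C4-2B (982 of all 14127 genes). The estimate was above 0 for 49 of 52 members in LNCaP (all genes 58.4%) and 50 in C4-2B (all genes 53.8%), and its median was 0.17 in LNCaP (all genes 0.05) and 0.28 in C4-2B (all genes 0.03). With each library left out in turn the members above 0 ran from 38 to 50 in LNCaP and 46 to 51 in C4-2B, and with columns 3 and 4 alone they were 32 in LNCaP and 40 in C4-2B. Without the most deviating control libraries of each line they were 40 and 49. The members below 0 were SEC61A2, SPCS1 and SEC11A in LNCaP and SEC61A2 and SAR1B in C4-2B. In C4-2B the smallest adjusted p belonged to LMAN1 (log2 0.64, adjusted p = 0.215), SEC16A (log2 0.67, adjusted p = 0.281) and KDELR3 (log2 0.81, adjusted p = 0.285), and in LNCaP to SPCS3 (log2 0.44, adjusted p = 0.521), SEC24A (log2 0.47, adjusted p = 0.561) and KDELR3 (log2 1.37, adjusted p = 0.561). Without LNCaP siCTRL replicate 4 the KDELR3 value was 0.78 (adjusted p = 0.717). SEC24D had log2 0.63 in LNCaP (adjusted p = 0.776) and 0.90 in C4-2B (adjusted p = 0.435).

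Between the lines, siCTRL cells without TG differed in 22 members, 16 higher in LNCaP than in C4-2B, against 21.1% of all genes, and 6 lower, against 20.1% of all genes. SEC24C had the smallest adjusted p, with 283, 271, 284 and 309 CPM in LNCaP siCTRL against 201, 179, 206 and 202 CPM in C4-2B siCTRL (log2 0.69, SE 0.0727, adjusted p = 6.66e-09). KDELR3 had the greatest difference, with 1.5, 1.92, 1.95 and 5.73 CPM in LNCaP siCTRL against 10.6, 9.48, 9.21 and 11.7 CPM in C4-2B siCTRL (log2 -1.79, SE 0.27, adjusted p = 3.69e-06), and -2.37 without LNCaP siCTRL replicate 4. SRP72 had 453, 444, 421 and 502 CPM in LNCaP siCTRL against 389, 357, 320 and 307 CPM in C4-2B siCTRL (log2 0.55, SE 0.0882, adjusted p = 1e-05). In CPM scaled within each line, the lines did not overlap in any of these genes. The log2 values came from 1 fit of all 32 libraries with its own scaling, so they differ from ratios of these CPM. SEC23B, SEC24B and SEC63 were also higher in LNCaP (log2 0.79, 0.73 and 0.60), and TMED9 was lower (log2 -0.73).

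The responses were not called as different between the lines. For the TG response edgeR called 0 members, against 0.848% of all genes. The unadjusted p was under 0.05 for 2 members and for 1419 of all 14628 genes. The smallest adjusted p was that of SURF4 (LNCaP minus C4-2B log2 0.34, adjusted p = 0.335). The knockdown response without TG gave 0, against 0.157% of all genes, and COPZ1 led (log2 -0.42, adjusted p = 0.194). Its unadjusted p was under 0.05 for 4 members and for 1723 of all genes. DESeq2 and limma voom called 0 in both of these comparisons. The knockdown response with TG gave 0 by edgeR, against 0.431% of all genes, with 12 members and 2246 of all genes at an unadjusted p under 0.05. DESeq2 called 4 members there, all lower in LNCaP than in C4-2B, and limma voom 0. TMED10 (log2 -0.37, adjusted p = 0.108) and SSR1 (log2 -0.50, adjusted p = 0.109) led by edgeR.

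Of 70 other genes listed for the same pathways, 62 could be tested. In LNCaP siCTRL cells TG raised 25 of them, 40.3% (all genes 24.6%), and lowered 9, 14.5% (all genes 25.1%). In C4-2B siCTRL cells it raised 22, 35.5% (all genes 21.2%), and lowered 8, 12.9% (all genes 19.3%). ARFGAP3, a GTPase activator for the COPI coat, averaged 161 ± 4.99 CPM in LNCaP siCTRL TG against 71.5 ± 3.95 CPM in siCTRL (SD, n = 4 each; log2 1.18, adjusted p = 1.69e-09), and GOSR2, a Golgi SNARE, 145 ± 20 CPM against 42.1 ± 2.08 CPM (SD, n = 4 each; log2 1.79, adjusted p = 2.11e-09). YIPF5, a membrane protein of the ER exit sites, and GOLGA2, a Golgi matrix protein, rose in C4-2B by log2 0.93 and 1.08 (adjusted p = 7.1e-06 and 9.19e-06). In siMOCOS cells 28 rose with TG in LNCaP, 45.2% (all genes 25.1%), and 26 in C4-2B, 41.9% (all genes 20.7%), while 7 fell in each line, 11.3% (all genes 21.9% in LNCaP and 17.2% in C4-2B). By adjusted p, though not by size, the rises were led by ARFGAP3 and the GTPase ARF4. They rose by log2 1.46 and 1.45 in LNCaP and by 1.40 and 1.18 in C4-2B. Knockdown calls were at or below the share of all genes in LNCaP, with and without TG. Knockdown without TG raised 2 there, 3.23% (all genes 6%), and lowered 6, 9.68% (all genes 9.73%), among them ARF4 (log2 -0.48, adjusted p = 0.000464) and SCFD1, which acts in SNARE fusion (log2 -0.46, adjusted p = 0.00106). In C4-2B it raised 3, 4.84% (all genes 9.09%), and lowered 0 (all genes 8.14%), among them SEC31B, the paralogue of SEC31A, with 4.05 ± 0.382 CPM in siMOCOS against 1.08 ± 0.516 CPM in siCTRL (SD, n = 4 each; log2 1.92, adjusted p = 0.000189). Knockdown with TG raised 7 in LNCaP, 11.3% (all genes 11.7%), and lowered 2, 3.23% (all genes 10.2%), with the p24 genes TMED1 and TMED3 among the rises (log2 1.05 and 0.57). In C4-2B it raised 8, 12.9% (all genes 9.21%), and lowered 0 (all genes 7.6%). The smallest adjusted p belonged to RAB2A, a GTPase of ER to Golgi transport (log2 0.70, adjusted p = 0.00049). SEC31B followed, with 2.55 ± 0.325 CPM in siMOCOS TG against 0.889 ± 0.257 CPM in siCTRL TG (SD, n = 4 each; adjusted p = 0.00163).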

How the data were processed

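Each of the 52 members was matched by its gene name. The authors' deposited table holds expected counts per gene, length-scaled per its name and not divided by library size. Per the submitters' processing notes, build hg38 was used with the tools Salmon 1.5.2, STAR 2.6.1d, FastQC 0.11.9, cutadapt 3.4 and Trim Galore 0.6.7. The sources used here give neither their order, options and annotation nor the dose or duration of TG. Per the labels' protocols, libraries were strand-specific, from polyadenylated RNA. Of the values above 0, 100% were not whole (tolerance 1e-06), and they were rounded to whole numbers for the count models.

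Each line's 16 libraries were fitted with the quasi-likelihood F-test of edgeR 4.0.16 (R 4.3.3) after TMM scaling and filterByExpr by group, which left 12 residual degrees of freedom. It tested 13806 genes in LNCaP and 14127 in C4-2B, at biological coefficients of variation of 0.174 and 0.219. Line differences came from 1 fit of 32 libraries and 14628 genes. P-values were adjusted over all genes tested by the Benjamini-Hochberg procedure. The standard error is the absolute unshrunken log2 change over the square root of F. Every adjusted p of a gene comes from this test unless another tool is named. Since the columns do not name the siRNA, the 4 knockdown libraries with the same line and drug formed 1 group, and a knockdown replicate is its column number. P-values measure the spread between these libraries. By the labels a knockdown group holds 2 libraries of each of 2 siRNAs, not 4 repeats of 1 siRNA. The 4 groups of a line share 1 estimate of the spread, so differences between knockdown columns also enter the tests of siCTRL cells. The fits were tested on simulated data.

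The members, the other pathway genes and the role groups were chosen with earlier results of these data known. Library values are given for the 6 called members with the greatest change with TG in siCTRL cells of each line, up to 4 by adjusted p in other comparisons within a line, up to 3 in line differences and interactions, and paralogues. Alternatives were DESeq2 1.42.0, limma 3.58.1 (voom), no filter, upper-quartile scaling, offsets for GC content and length (GENCODE v29 of GRCh38, values for 89.8% of genes tested in LNCaP and 89.6% in C4-2B), 1 fit of all libraries, the siCTRL libraries alone, a replicate block and each library left out. Fits with 2 knockdown columns, and without the most deviating control libraries, were added after seeing the data. Promoters come from RefSeq (GRCh38.p14, 35116 promoters of 27305 genes), and a gene held a motif if any of its starts did. SPCS1, SEC24D, KDELR2 and TMED9 had none in the table. No libraries agreed within sampling noise (lowest chi-square per gene 5.19).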

Additional observations from a re-analysis of the deposited data

Results flagged for a closer look

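Library values of the named genes were screened in 134 groups of 4 for a highest or lowest library whose gap to the next, divided by the range of the group, exceeded Dixon's critical value for 4 libraries. Chance flags about 1 in 20 groups, and 6 were found. In LNCaP siCTRL, replicate 4 was the high library for 3 genes. KDELR3 had 5.73 CPM there, against 1.5 to 1.95 CPM in the other 3 libraries. SEC24A had 117 CPM, against 89.8 to 93.7 CPM. COPZ1 had 282 CPM, against 238 to 243 CPM, and its fall after knockdown was log2 -0.43 without that library (adjusted p = 0.00368).

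SEC24A was also high in LNCaP siMOCOS TG replicate 2, at 360 CPM against 278 to 286 CPM, and without that library its rise after knockdown with TG was log2 0.47 (adjusted p = 0.0123). ARCN1 was low in LNCaP siMOCOS replicate 2, at 249 CPM against 282 to 285 CPM. SEC61A1 was high in C4-2B siCTRL replicate 2, at 918 CPM against 655 to 695 CPM.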

How the results depend on the processing

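The TG counts kept within 1.5 times under every alternative run, from 32 to 38 members in LNCaP siCTRL, 24 to 31 in C4-2B siCTRL, 38 to 41 in LNCaP siMOCOS and 34 to 39 in C4-2B siMOCOS. The knockdown counts moved, and the cause was not tested. Counts in this section are given without the share of all genes called under the same setting. Without TG, the LNCaP count of 11 members was 7 with no filter, 6 with upper-quartile scaling, 4 with GC and length offsets, 17 with columns 1 and 2 and 4 without the most deviating control libraries. The C4-2B count of 2 was 1 with limma voom, 1 with no filter, 6 in 1 fit of all libraries, 8 with columns 1 and 2, 0 with columns 3 and 4 and 0 without the most deviating control libraries. With TG, the LNCaP count of 3 was 6 with DESeq2, 7 with limma voom, 5 with the offsets and 20 with columns 1 and 2, and the C4-2B count of 9 was 15 with columns 1 and 2 and 6 with columns 3 and 4. The interaction count of 0 was 1 in C4-2B with the offsets, and 1 in each line with columns 1 and 2. The line difference in knockdown with TG was 4 with DESeq2.

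With each library left out in turn, the counts for TG in siCTRL ran from 32 to 36 in LNCaP and 24 to 29 in C4-2B, and for TG in siMOCOS from 39 to 40 and 34 to 37. For knockdown without TG they ran from 5 to 15 and 0 to 2, and with TG from 2 to 7 and 8 to 11. The baseline line difference ran from 17 to 24, the line difference in knockdown with TG from 0 to 2, and the other line differences and both interactions stayed at 0.

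The replicate numbers of siCTRL TG and siCTRL did not pair the libraries (correlations of same-numbered libraries -0.195 to 0.365 in LNCaP and -0.607 to 0.283 in C4-2B). A replicate block gave 37 members in LNCaP and 24 in C4-2B, and 38 and 29 with GC and length offsets. Reversed directions were found only in values near 0 that were not called. With the offsets SAR1A had log2 -0.06 in LNCaP and -0.03 in C4-2B with TG, and -0.04 and -0.00 with the block added. KDELR1 in LNCaP had 0.03 and 0.05 in the same fits, 0.08 without the most deviating control libraries and -0.14 to 0.04 with a library left out. SEC24B in LNCaP had -0.03 and -0.01, and -0.02 to 0.18 with a library left out. COPZ1 after knockdown in C4-2B had 0.02 with upper-quartile scaling, 0.02 with columns 1 and 2 and -0.10 to 0.00 with a library left out. Single gene values were followed only for the calls of the main fit and a list of values not called, so gains among other members were not counted. Of 1862 gene values under other settings, 1709 kept direction and call, 126 lost the call, 16 gained one and 11 reversed. With a library left out, 1730 of 1864 kept both, 125 lost the call, 6 gained one and 3 reversed. Depth limits KDELR3 in LNCaP, where libraries held 1.04 to 6.91 CPM.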
